A study of Mus musculus with 2 samples.

Results

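The peaks described here are sites of open chromatin that were found in the ovaries of both mice and that lie far from every protein-coding gene start. They were taken from replicate 2, whose longer peak list has more rows. A peak was kept when it overlapped a peak of replicate 1 by 1 bp or more, when its centre lay over 200 kb from every start site of every protein-coding gene, and when its centre was outside every annotated gene body of any type. The rule used position and overlap only, not the signal values. It kept 2716 of 81895 shared peaks (3.32%), of 114462 peaks in the list of replicate 2. At the edge of the distance rule, the closest peaks kept lay 200058 bp from a start site of Sp3 and 200134 bp from Lrrc3b, and the closest peaks left out lay 199953 bp from Rpl38 and 199900 bp from Ids.

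DNase-seq was performed on whole ovary of 2 female mice aged 36 days, from the B6CASTF1/J strain, the F1 hybrid of C57BL/6J and CAST mice. The labels give 1 group, with no treatment and no transgene, and number the females 06 (replicate 1) and 05 (replicate 2), so each library was taken as 1 animal although both carry the same donor entry. Whole ovary holds many cell types, and the marker genes with an open promoter in both libraries were 6 of 6 for granulosa cells, 4 of 4 for theca and luteal cells, 2 of 5 for oocytes (Dazl and Gdf9), 2 of 3 for endothelium, 1 of 3 for macrophages, 2 of 3 for the surface epithelium and 0 of 2 for liver. An open promoter in both libraries was found for 66.7% of all coding genes, so counts of so few markers do not settle which cell types were present. In a mixture such as whole ovary, fewer open cells and weaker opening in each cell cannot be told apart.

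DNase I cuts DNA where nucleosomes and bound proteins leave it exposed, so open sites collect cuts, and a short protected stretch inside one, a footprint, marks a bound protein. Open sites far from promoters are often enhancers, which act on a gene through loops of chromatin, or sites of the architectural protein CTCF, which bounds such loops. Genes that encode developmental regulators often sit beside long stretches without other coding genes, called gene deserts, and their distant enhancers can lie deep inside them.

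The sequences of 8 of these peaks are printed here because the strongest values, the clearest footprints and the results on CTCF and on ovarian regulators turn on them. They were read from the RefSeq GRCm38.p6 genome, the build of the deposited coordinates (mm10), 5′ to 3′ on the plus strand. Capitals mark the bases where a footprint of replicate 1 and a footprint of replicate 2 overlap. The last of them, beside Bnc2 and beside Nr2f2, were chosen after their values were seen.
Gm31371/Gm15319 peak, chr8:20122141-20122320, plus strand: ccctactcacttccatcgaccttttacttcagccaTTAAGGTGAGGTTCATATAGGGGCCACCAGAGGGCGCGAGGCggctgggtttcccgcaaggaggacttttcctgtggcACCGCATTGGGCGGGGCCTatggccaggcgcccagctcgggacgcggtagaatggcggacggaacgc
Cntnap5b/Cdh20 peak, chr1:102628181-102628320, plus strand: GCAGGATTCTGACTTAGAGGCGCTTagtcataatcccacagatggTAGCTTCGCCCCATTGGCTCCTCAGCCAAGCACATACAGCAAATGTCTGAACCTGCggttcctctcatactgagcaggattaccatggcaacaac
Pcmtd1/Sntg1 left peak, chr1:7397821-7398060, plus strand: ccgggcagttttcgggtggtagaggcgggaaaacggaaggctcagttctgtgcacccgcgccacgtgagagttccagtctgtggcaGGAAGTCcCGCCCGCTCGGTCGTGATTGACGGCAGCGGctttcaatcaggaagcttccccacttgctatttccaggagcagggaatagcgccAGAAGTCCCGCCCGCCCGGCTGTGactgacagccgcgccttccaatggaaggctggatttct
Pcmtd1/Sntg1 right peak, chr1:7398061-7398320, plus strand: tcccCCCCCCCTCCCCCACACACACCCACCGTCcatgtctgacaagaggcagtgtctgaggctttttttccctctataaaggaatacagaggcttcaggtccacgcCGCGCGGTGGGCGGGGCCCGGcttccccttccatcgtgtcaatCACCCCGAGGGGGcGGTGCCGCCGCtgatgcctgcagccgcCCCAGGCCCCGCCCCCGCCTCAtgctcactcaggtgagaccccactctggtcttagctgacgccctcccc
Slc7a11/Noct peak, chr3:50906061-50906260, plus strand: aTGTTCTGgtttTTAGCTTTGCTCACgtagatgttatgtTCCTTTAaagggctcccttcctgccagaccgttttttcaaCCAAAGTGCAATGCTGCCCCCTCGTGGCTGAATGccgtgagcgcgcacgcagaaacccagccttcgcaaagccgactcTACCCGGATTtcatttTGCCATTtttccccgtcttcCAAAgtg
Lrig3/Atp23 peak, chr10:126330681-126330860, plus strand: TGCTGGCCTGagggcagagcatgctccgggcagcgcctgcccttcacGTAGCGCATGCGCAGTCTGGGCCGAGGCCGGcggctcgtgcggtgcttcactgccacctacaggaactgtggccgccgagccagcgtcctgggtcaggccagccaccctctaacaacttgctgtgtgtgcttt
Ccdc171/Bnc2 peak, chr4:84064741-84064920, plus strand: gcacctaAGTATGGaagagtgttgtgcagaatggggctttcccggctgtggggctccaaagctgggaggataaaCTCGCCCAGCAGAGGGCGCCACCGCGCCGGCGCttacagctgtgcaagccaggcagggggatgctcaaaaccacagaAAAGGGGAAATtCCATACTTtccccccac
Nr2f2/Gm10295 peak, chr7:70822361-70822560, plus strand: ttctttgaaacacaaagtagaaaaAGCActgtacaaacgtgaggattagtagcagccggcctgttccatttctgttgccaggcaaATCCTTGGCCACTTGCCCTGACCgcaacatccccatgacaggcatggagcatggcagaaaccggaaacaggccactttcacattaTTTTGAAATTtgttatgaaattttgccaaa
Each is named by the coding genes that flank it. In the Gm31371/Gm15319 peak the CTCF consensus was matched at bases 59 to 70 on the plus strand (CCACCAGAGGGC), inside the longer shared footprint. In the Ccdc171/Bnc2 peak it was matched at bases 80 to 91 (CCAGCAGAGGGC), also inside a shared footprint. The Cntnap5b/Cdh20 peak held none of the 20 consensus motifs searched, although 81 of its 140 bases lay in shared footprints.

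The strongest of these peaks were few, and several marked the start of a noncoding gene. Each value is the deposited signal of the peak, for which a scale was not given in the sources used here. The Gm31371/Gm15319 peak on chromosome 8 had the highest value, 21.7 in replicate 1 and 13.6 in replicate 2, 17.7 ± 5.74 (SD, n = 2), and ranked 93 among all shared peaks. It lay 0.153 kb from the annotated noncoding gene Gm21769.

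The Cntnap5b/Cdh20 peak had a value of 10.92 in replicate 1 and 10.96 in replicate 2, 10.94 ± 0.0322 (SD, n = 2). It stood 2140 kb from the nearest coding start site, that of Cdh20, which encodes a cell adhesion cadherin, and 90.6 kb from any annotated noncoding gene. Among the 10 strongest peaks it was the only one that was not higher in replicate 1.

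A pair of peaks that touch each other, between Pcmtd1 and Sntg1 on chromosome 1, lay at the start of the long noncoding RNA gene Gm26901. The right peak had a value of 13.6 in replicate 1 and 5.43 in replicate 2, and its centre was 95 bp from the RefSeq start of Gm26901. The left peak had 11.2 and 6.43, and its centre was 155 bp from that start. Both were higher in replicate 1, and they held 5 and 3 shared footprints and 16 and 19 CpG sites. Shared footprints are counted as overlapping pairs of a footprint from each library, so a footprint can count in more than 1 pair.

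Between Lpp and Tprg on chromosome 16, the peak at chr16:25059001-25059500 had a value of 11.95 in replicate 1 and 6.77 in replicate 2 and lay 388 bp from the start of the long noncoding RNA gene A230028O05Rik. It held 10 pairs of overlapping footprints, the highest number in a far peak. The Slc7a11/Noct peak, with 9.78 and 6.83, lay 17269 bp from the nearest RefSeq gene start and held 7 such pairs.

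Others of the 10 strongest were the Lrig3/Atp23 peak on chromosome 10, with 10.8 in replicate 1 and 4.93 in replicate 2, chr12:29291121-29291400 between Eipr1 and Myt1l, with 9.37 and 4.52, and chr1:122357141-122357300 between Ddx18 and Dpp10, with 7.74 and 5.27. The Lrig3/Atp23 peak held a match to the consensus of NRF1, a factor that binds GC-rich promoters of housekeeping genes. The central 31 bases of each of the 10 strongest peaks occurred once in the genome, so the same peaks lead when repeated sequence is left out.

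RefSeq places a start of some gene within 500 bp of the centre of 115 of the 2716 peaks. Those 115 had a median value of 0.664 in replicate 1 and 0.589 in replicate 2, and the 2546 peaks away from RefSeq and GENCODE starts had 0.501 and 0.471. RefSeq gene bodies covered 340 of the peaks that GENCODE leaves outside every gene, 288 of them long noncoding RNA genes and 19 protein-coding genes. The comparison with RefSeq was added after the values were seen, and these RefSeq counts were not made over all shared peaks.

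As a set, the far peaks were weak. Their median value was 0.501 in replicate 1 and 0.471 in replicate 2, 0.486 ± 0.0214 (SD of the library medians, n = 2). Over all shared peaks the medians were 1.09 and 0.877. The medians of the far peaks were thus below those of all shared peaks in each library by more than the spread between the libraries, and no test between groups was possible with 1 group. Shared peaks over 1 kb from every annotated start site that were not among them (49869, called other distal peaks from here on) had medians of 0.873 and 0.746, which also lie above both.

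**Figure D1:**
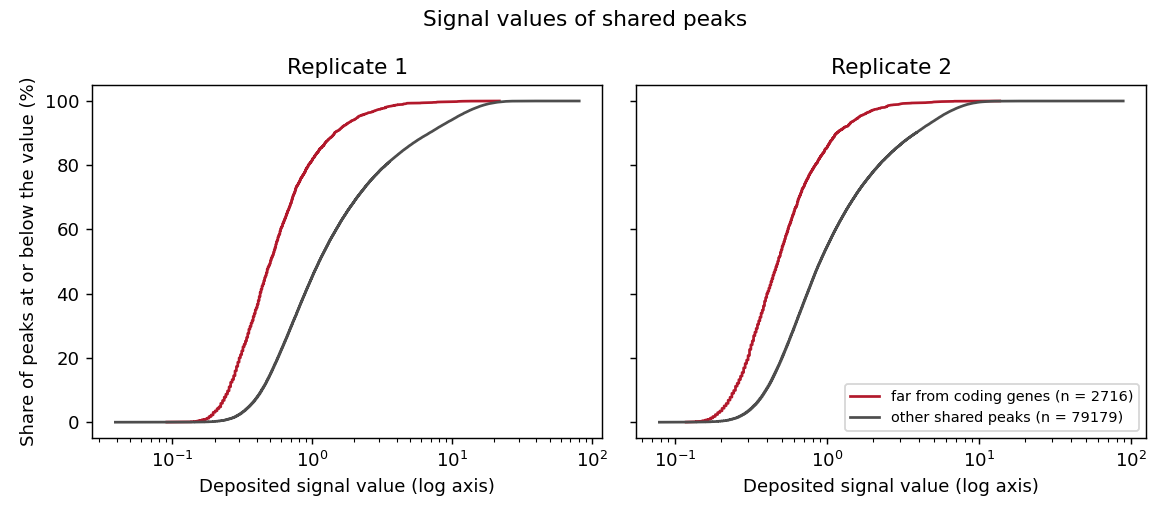
Cumulative share of peaks (%) against the deposited signal value on a log axis, for replicate 1 (left) and replicate 2 (right). The curve of the 2716 far peaks lies to the left of that of the 79179 other shared peaks through the middle of the range in both libraries, with medians of 0.501 and 0.471 against 1.12 and 0.897.

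Only 442 of the far peaks (16.3%) reached the median of all shared peaks, and 1070 (39.4%) were among the lowest 10%. The strongest 10% of all shared peaks held 16 of them. The shorter list of both libraries held 1291 of them (47.5%), against 64.5% of all shared peaks and 56.1% of other distal peaks. In units of the smallest step between values, the median far peak was 77 steps high in replicate 1 and 72 in replicate 2, and that 1 step is 1 read was not shown, so the counting error of a single peak is unknown.

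Values were lower at larger distance from the nearest coding start. The 1180 peaks from 200 to 300 kb away had medians of 0.586 in replicate 1 and 0.550 in replicate 2. The 979 peaks from 300 to 500 kb had 0.475 and 0.452, the 446 from 500 to 1000 kb had 0.417 and 0.399, and the 111 beyond 1000 kb had 0.352 and 0.347. The order was the same in both libraries. Just outside the distance rule, the 1115 shared peaks outside gene bodies from 150 to 200 kb had medians of 0.606 and 0.524, close to the 0.625 and 0.576 of the 693 peaks from 200 to 250 kb, so the values show no break at the threshold.

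The 5 peaks farthest from a coding start lay from 2195 to 2419 kb away. The farthest, chr14:90889838-90890071, lay 2419 kb from the start of Pcdh20, in the stretch between the protocadherin genes Pcdh20 and Pcdh9, with a value of 0.261 in replicate 1 and 0.281 in replicate 2. The second farthest, chr14:91631101-91631260, lay in the same stretch, with 0.287 and 0.386. The others lay between Cntnap5b and Cdh20 on chromosome 1 (0.156 and 0.124) and between Celf4 and Pik3c3 on chromosome 18 (0.586 and 0.628, and 1.83 and 0.883). Of these 5 only the last was above the median of all shared peaks.

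The far peaks were poorer in GC and CpG than all shared peaks, and their median width was that of other distal peaks. Their median width was 200 bp, against 220 bp over all shared peaks, their median GC content 50.5%, against 55.0%, and their median ratio of observed to expected CpG 0.223, against 0.342. In other distal peaks these medians were 200 bp, 53.0% and 0.252. A CpG was absent from 337 far peaks (12.4%), against 5.54% of all shared peaks and 7.55% of other distal peaks.

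Most of them came from sequence that occurs once. The central 31 bases occurred more than once in the genome for 98 of them (3.61%), against a background of 1.73% over all shared peaks. The peak with the most copies, chr3:149445301-149445520 between Adgrl2 and Adgrl4, has 849195 copies of its central bases and a value of 0.430 in replicate 1 and 0.582 in replicate 2. Chromosome Y carried 6 far peaks although both animals were female. The central bases of all 6 occurred between 8 and 95 times in the genome, and their medians, 0.215 and 0.239, were the lowest of any chromosome.

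The offset between the libraries was smaller at the far peaks than over all shared peaks, and the spread of the ratio was not. The value was higher in replicate 1 at 1690 of the 2716 peaks (62.2%), against a background of 79.6% of all shared peaks and 74.3% of other distal peaks. The median log2 ratio of replicate 2 to replicate 1 was -0.16 for the far peaks, -0.42 for all shared peaks and -0.30 for other distal peaks. Its quartiles were -0.48 and 0.19 for the far peaks, -0.73 and -0.08 for all shared peaks and -0.58 and 0.01 for other distal peaks. By class of value, with all shared peaks put into 4 classes of equal size from the weakest (1) to the strongest (4), the median log2 ratio of the far peaks was -0.08, -0.18, -0.35 and -0.62, near the -0.13, -0.24, -0.39 and -0.61 of other distal peaks. Base composition moved with this ratio. Over 5 classes of GC content that each hold an equal share of all shared peaks, the median log2 ratio of the far peaks ran from 0.06 in the class of lowest GC (1173 peaks) through -0.16, -0.33 and -0.44 to -0.76 in the class of highest GC (57 peaks). In other distal peaks it ran from -0.03 to -0.75 over the same classes. The part of GC content in the difference between the libraries was not tested.

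**Figure D2:**
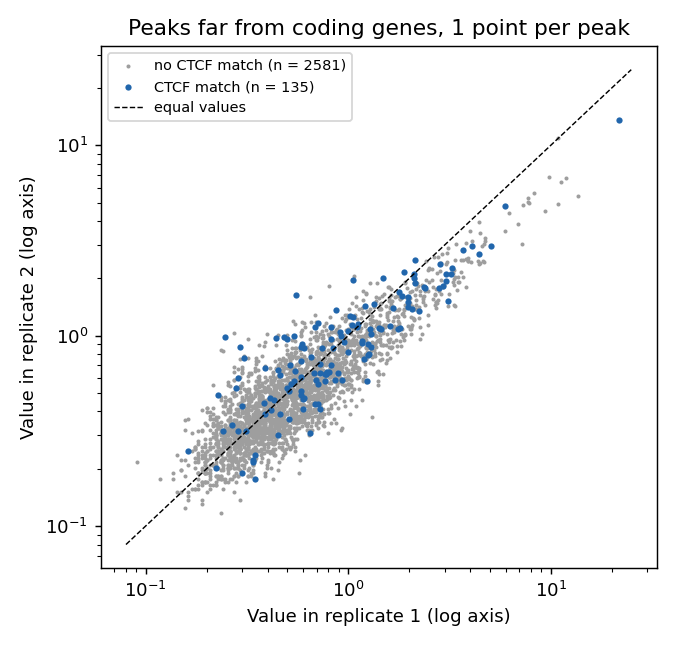
Signal value in replicate 2 against replicate 1 for the 2716 far peaks, 1 point per peak, both axes logarithmic, with peaks that match the CTCF consensus in blue and a dashed line at equal values. Weak peaks scatter to both sides of the line and 9 of the 10 strongest lie below it, and the strongest point, at 21.7 and 13.6, is 1 of the 135 peaks with a CTCF match.

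Footprints were present in most far peaks. A footprint counted as inside a peak when its centre lay there. At least 1 was found in 2113 peaks (77.8%) with the footprints of replicate 1, against 87.3% of all shared peaks and 87.7% of other distal peaks. With the footprints of replicate 2 at least 1 was found in 2140 (78.8%), against 87.1% and 87.8%. Both libraries had one in 1818 peaks (66.9%), against a background of 80.2% over all shared peaks. Neither had one in 281 (10.3%), against 5.86% of all shared peaks.

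The share followed the signal. By the same 4 classes of mean value, in class 1, the weakest, 49.5% of 1669 far peaks had a footprint in both libraries. In class 2 it was 92.1% of 605, in class 3 97.9% of 341, and in class 4 100% of 101. In other distal peaks the shares in the same classes were 54.7%, 84.3%, 95.7% and 99.7%, so the far peaks were lower in class 1 and higher in the other classes, and whether the shares differ was not tested. These classes were added after the values were seen.

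The far peaks held 5062 footprints of replicate 1 and 5157 of replicate 2. Their median width was 9 bp in each library, with a range from 7 to 75 bp and from 7 to 73 bp. Of these footprints 57.6% lay within 50 bp of the peak centre in each library. The median far peak was 200 bp wide, and whether footprints sit nearer the centre than the peak width alone would give was not tested. Per kb of peak there were 8.59 and 8.76 footprints, against 11.12 and 11.02 over all shared peaks.

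**Figure D3:**
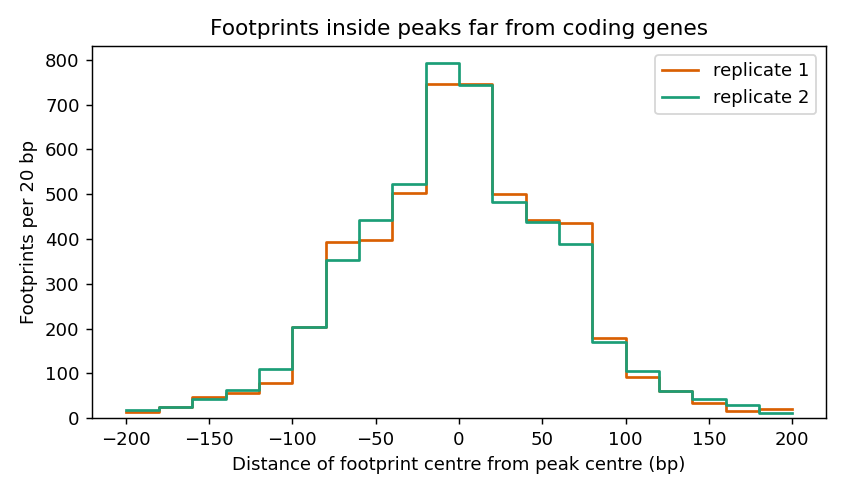
Number of footprints per 20 bp against the distance of the footprint centre from the peak centre (bp), for the far peaks, with replicate 1 in orange and replicate 2 in green. Both libraries give the same shape, highest within 20 bp of the centre, and 57.6% of the footprints of each lie within 50 bp. Every peak covers its own centre and fewer peaks reach the outer distances, and the shape was not compared with even placement.

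Footprints of the 2 libraries overlapped each other by 1 bp or more in 1378 far peaks (50.7%), in 2498 pairs with a median common stretch of 8 bp. The same share over all shared peaks was not computed, so whether 50.7% is high or low is unknown. Peaks with such a shared footprint had a median value of 0.749 in replicate 1 and 0.674 in replicate 2, and the 1338 without one had 0.352 and 0.334. Their median GC content was nearly equal, 50.4% and 50.7%. The longest common stretch was 73 bp, and 31 peaks held 5 or more of the overlapping pairs.

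The CTCF consensus was matched in 135 far peaks (4.97%). A match needed every letter of the consensus, so CTCF sites that differ from it were not counted. The search covered 75 bp to each side of the peak centre on both strands, and the background was 5.92% of all shared peaks and 8.29% of other distal peaks. None of 5290 windows of the same length, 2000 bp to each side and touching no peak, held a match, which allows a share of up to 0.0567%. By class of value, from 1 to 4, the share of far peaks with a match was 2.46%, 6.61%, 11.4% and 14.9%, and that of other distal peaks 2.82%, 5.31%, 12.1% and 20.3%. The far peaks were below other distal peaks in 3 of the 4 classes and above them in class 2, class 4 of the far peaks held 15 matches, and whether the shares differ was not tested.

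**Figure D4:**
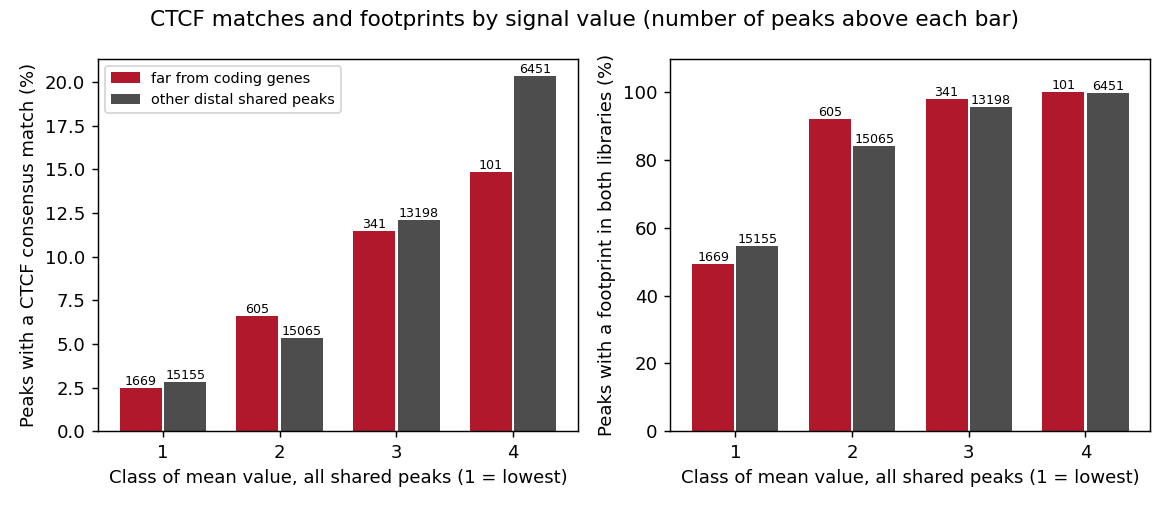
Share of peaks with a CTCF consensus match (left, %) and with a footprint in both libraries (right, %) by class of mean value (4 classes of equal size over all shared peaks), for far peaks (red) and other distal peaks (grey), with the number of peaks above each bar. Both shares rise with the value in both sets, from 2.46% to 14.9% and from 49.5% to 100% in the far peaks.

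Footprints lay over the CTCF match in both libraries in 94 of the 135 far peaks (69.6%), and in 88.9% of the 4132 other distal peaks with a match. The far peaks with a match had median values of 0.788 in replicate 1 and 0.864 in replicate 2, and the other distal peaks with a match 1.62 and 1.37. Of the 135 matches 65 were on the plus strand and 70 on the minus strand. After the Gm31371/Gm15319 peak, the strongest with a match were chr12:77781481-77781640 between Fut8 and Gm6657, with 5.93 and 4.78, and the Ccdc171/Bnc2 peak, with 5.09 and 2.95.

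Of the other motifs, the E-box CAGCTG was found in 473 far peaks (17.4%), against 14.3% of all shared peaks, 16.3% of other distal peaks and 4.97% of the flanking windows. E-boxes are bound by basic helix-loop-helix factors such as TCF21. The GC box GGGCGG, bound by SP factors at promoters, was found in 5.78% of far peaks, against 19.7% of all shared peaks and 9.06% of other distal peaks. The site of NR5A nuclear receptors, the family of the steroidogenic regulators SF-1 and LRH-1, was searched as CAAGGTCA and found in 80 far peaks (2.95%), which is above the 2.35% of all shared peaks and the 0.964% of flanking windows and below the 3.15% of other distal peaks. This form was chosen after the 9-letter form TCAAGGTCA had been counted, at 0.736% of far peaks, 0.650% of all shared peaks, 0.880% of other distal peaks and 0.302% of flanking windows.

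The GATA site AGATAA was found in 7.73% of far peaks, against 5.05% of all shared peaks, 6.40% of other distal peaks and 10.8% of flanking windows. The AP-1 site TGANTCA was found in 6.48%, against 5.02%, 6.25% and 4.39%. The long consensus of REST, a repressor of neuronal genes, was matched in 18 far peaks (0.663%), against 0.454% of all shared peaks and 0.533% of other distal peaks. A footprint of both libraries lay over it in 14 of the 18 (77.8%), against 79.3% of other distal peaks with a match. The NFI consensus was matched in 8 far peaks (0.295%), against 0.131% of all shared peaks and 0.170% of other distal peaks, and was covered in both libraries in 5 (62.5%), against 72.9%. Short sites were covered less often in both sets of peaks. Both libraries had a footprint over the site in 9.94% of far peaks with an E-box, 12.5% with an NR5A site, 2.84% with an AP-1 site and 0.952% with a GATA site. In other distal peaks these shares were 13.7%, 19.96%, 3.59% and 3.38%. Of the 2716 far peaks 1319 (48.6%) matched none of the 20 motifs, against 43.6% of all shared peaks, which says only that these letters were absent from the window.

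Sequence that meets the position rule made up 529.8 Mb of the 2647.5 Mb of known bases (20.01%). Chromosome Y accounts for 37.6 Mb of it, although both animals were female. All sequence that meets the rule held 5.13 far peaks per Mb, and the whole genome 30.9 shared peaks per Mb. Chromosome 13 had the most, 10.2 per Mb, and chromosome 6 the fewest of the autosomes, 3.58. Chromosome X had 2.59 per Mb and chromosome Y 0.160, and the autosomes together 5.72. Shared peaks per Mb were likewise lower on X (12.7) and on Y (0.363) than on the autosomes (33.3).

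**Figure D5:**
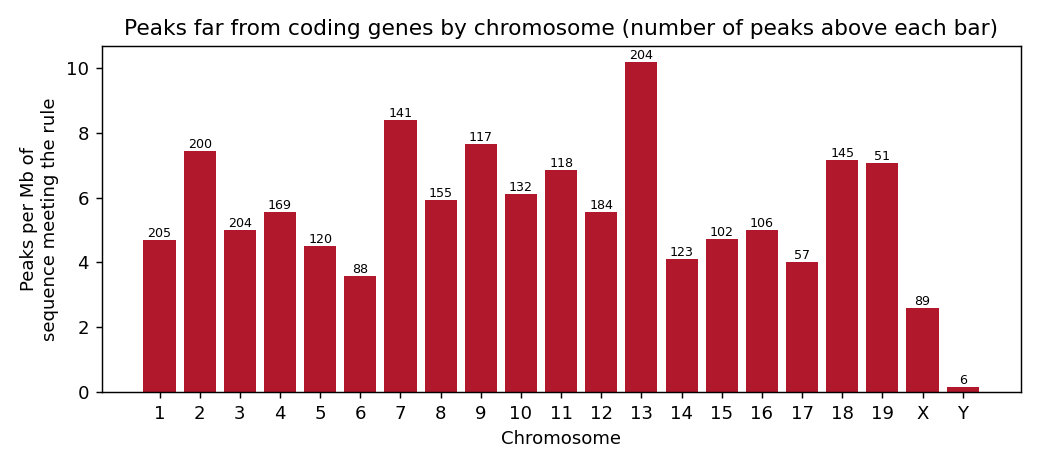
Far peaks per Mb of sequence that meets the position rule, by chromosome, with the number of peaks above each bar. Chromosome 13 is highest at 10.2 per Mb and chromosomes X and Y are lowest at 2.59 and 0.160.

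The far peaks lay farther from one another than shared peaks in general. From a far peak to the nearest other far peak the median was 24663 bp. From a shared peak to the nearest shared peak it was 2934 bp. Whether far peaks are grouped more than the position rule alone would give was not tested. Neighbouring far peaks on a chromosome were a median of 68.7 kb apart, and those between the same pair of coding genes 38017 bp apart (2082 pairs). Another far peak lay within 10 kb of 976 of them (35.9%), against 72.8% for the nearest shared peak around all shared peaks. The centres of 455 (16.8%) had another within 1 kb, and 11 neighbours touched.

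Between coding genes, 994 stretches held some sequence that meets the rule, and 634 of them held at least 1 far peak. The median stretch with far peaks held 3 of them and was 0.837 Mb long, and 164 stretches held 1. A total of 65 stretches held 10 or more, and these carried 874 of the far peaks (32.2%). Of 337 stretches with 0.5 Mb or more of such sequence, 59 had none, and 23 of these were on chromosome Y and 14 on chromosome X. The largest empty stretch, between 4931417E11Rik and Gm9008 on chromosome 6, held 2.61 Mb of such sequence.

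The stretches with most far peaks lay beside genes of several kinds. Between H2al1j, a histone gene, and Bcor, which encodes a corepressor of BCL6, chromosome X carried 29 of them in 333 kb (chrX:11528601-11861460), with values from 0.313 to 3.33 in replicate 1 and from 0.242 to 1.84 in replicate 2. That stretch held 82.4 far peaks per Mb of sequence that meets the rule, the highest of all with at least 0.1 Mb, on a chromosome with a low density. None of the 29 matched CTCF and 20 had a footprint in both libraries.

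Zfp608 and Gramd3 on chromosome 18 also flanked 29 far peaks, spread over 1000 kb, with medians of 0.554 in replicate 1 and 0.438 in replicate 2. Between Dhx35 and Gm826 on chromosome 2 there were 27, of which 5 matched CTCF. Slc4a3 and Epha4, which encodes an ephrin receptor, flanked 21, led by chr1:75925821-75926020 with 7.72 and 5.02. Mki67 and Mgmt, which encode a proliferation antigen and a DNA repair enzyme, flanked 19 on chromosome 7.

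Rps24 and Zmiz1, a ribosomal protein gene and a gene for a transcriptional coactivator, flanked 18 on chromosome 14, with a median of 0.834 in replicate 1 and 0.694 in replicate 2. Zeb2, a zinc finger repressor, and Acvr2a, an activin receptor, flanked 18 on chromosome 2, spread over 3128 kb. Npvf and Nfe2l3 on chromosome 6 flanked 17 with the highest medians of these 12 stretches, 1.13 and 1.03. They lay close together, with a median spacing of 2.26 kb, led by chr6:51216521-51216720 with 4.00 and 3.55.

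The cadherin genes Cdh26 and Cdh4 flanked 17 on chromosome 2, Cd83 and Jarid2 16 on chromosome 13, and the cadherin genes Cdh11 and Cdh5 16 on chromosome 8. Rnf144b and Id4, an inhibitor of helix-loop-helix factors, flanked 15 on chromosome 13, led by chr13:47667421-47667620 with 7.79 in replicate 1 and 4.99 in replicate 2, 29 bp from the start of the noncoding gene 4930471G24Rik. Of these 12 stretches, those beside Dhx35, Npvf and Cdh26 were the only ones with a match to the CTCF consensus, which does not show that CTCF was absent from the others. Nr2f2/Gm10295, Celf4/Pik3c3 and Med13l/Tbx3 also held 15 far peaks, and the tie was broken by the higher summed value. Celf4/Pik3c3 held 1 CTCF match.

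Of 21938 coding genes, 1146 flanked a far peak (5.22%). Of the 1687 coding genes that border sequence meeting the rule, 67.9% did. The promoter was open in both libraries, with a peak within 500 bp of a start site, for 902 of the 1146 (78.7%). That compares with 66.7% of all coding genes and with 49.5% of the 541 genes that border such sequence and flank no far peak. Both of these sets include genes of chromosome Y, although the animals were female, and olfactory or vomeronasal receptor genes. The shares without them were not computed. Of the 146 genes that flanked 10 or more far peaks, 128 (87.7%) had an open promoter.

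Ovarian regulators were well represented among the flanking genes. Of 46 such genes, 19 bordered sequence meeting the rule and 18 of these flanked a far peak, all 18 with an open promoter. The sequence beside them held 147 far peaks, or 14.5 per Mb, against 5.13 per Mb for all and 5.72 on the autosomes. For granulosa genes it was 5 of 5 bordering genes and 13.2 per Mb, for stroma and vessel genes 4 of 5 and 15.6 per Mb, for theca and luteal genes 1 of 2, and for oocyte genes 1 of 1. The last pair rest on 2 far peaks and 1 far peak, and 16 of the 20 far peaks of the stroma and vessel genes lay in 1 stretch, beside Cdh5. The lists were chosen with earlier results of these data known, and genes of a list can share a stretch. Whether these densities differ from the background was not tested. The lists also differ in how much such sequence lies beside them. It was 10.1 Mb for the 19 ovarian regulators and 53.0 Mb for 25 cadherin and protocadherin genes. Density was also above that of all beside olfactory and vomeronasal receptor genes, at 9.42 per Mb. There 11 of the 19 far peaks lay in 1 stretch, between Olfr1507 and Dad1. How density changes with the size of a stretch was not tested.

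Nr2f2, which encodes the nuclear receptor COUP-TFII of ovarian stroma and theca, flanked 26 far peaks, 15 to its right and 11 to its left, the most of the ovarian regulators. Their values ran from 0.176 to 2.89 in replicate 1 and from 0.222 to 1.96 in replicate 2, and 18 of the 26 were higher in replicate 1. The strongest, printed above, lay 456 kb from the start of the gene, with 2.89 and 1.96, 2.42 ± 0.652 (SD, n = 2), and 4 footprints in each library. Nr2f1, its close relative, flanked 6, from 0.221 to 0.501 and from 0.209 to 0.569.

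Sox9, the determinant of the testicular Sertoli cell, flanked 15 far peaks, 6 to its right and 9 to its left, from 0.234 to 2.48 in replicate 1 and from 0.216 to 1.13 in replicate 2. A footprint of both libraries was present in 14 of the 15, and 1 reached the median of all shared peaks. The strongest, chr11:111523581-111523760, stood 1259 kb from its start, on the side of Kcnj2, with 2.48 and 1.13.

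Nr5a2, which encodes LRH-1, a nuclear receptor required in granulosa cells for ovulation, flanked 14, all between it and Ptprc. They ran from 0.287 to 1.21 in replicate 1 and from 0.249 to 0.955 in replicate 2. The strongest, chr1:137221681-137222060, lay 261 kb from its start, with 1.21 and 0.955. Cited2, a transcriptional coregulator of gonad development, flanked 13, spread over 2544 kb, with medians of 0.378 and 0.504.

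Foxo1, a forkhead factor of granulosa cells, flanked 12 far peaks within 221 kb, from 0.391 to 2.21 in replicate 1 and from 0.445 to 1.82 in replicate 2. Its stretch held 48.1 per Mb of sequence meeting the rule. Runx1, a factor of the fetal granulosa lineage, flanked 12, led by chr16:93293121-93293320 with 1.91 and 1.92, nearly equal in both animals.

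Zfp36l1, an RNA-binding protein that destabilises messenger RNA, flanked 11 far peaks within 69.5 kb, and these were stronger than most. Their values ran from 0.723 to 3.89 in replicate 1 and from 0.602 to 2.47 in replicate 2, with medians of 2.01 and 1.51. All 11 had a footprint in both libraries and 8 reached the median of all shared peaks. The strongest, chr12:79859681-79859960, stood 253 kb from its start, between it and Rad51b, with 3.89 and 2.47.

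Bnc2, a zinc finger gene, flanked 9, of which 3 matched CTCF, from 0.287 to 5.09 in replicate 1 and from 0.314 to 2.95 in replicate 2. The strongest is the CTCF-matched peak printed above, 227 kb from its start. Gli3, an effector of Hedgehog signalling, flanked 6, of which 3 lay between it and Inhba. The strongest of these, chr13:15759201-15759400, had 4.04 and 2.44. Inhba, which encodes a subunit of activin and inhibin, flanked 11 in all, 8 of them on its other side.

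Zfpm2, the GATA cofactor FOG2, flanked 6 far peaks, from 0.274 to 0.671 in replicate 1 and from 0.321 to 1.03 in replicate 2. Irx3 and Irx5, Iroquois homeobox genes of the granulosa lineage, flanked the same 5, led by chr8:92129381-92129560 with 0.821 and 0.903. Gata6 flanked 4, the strongest with 1.41 and 1.58. The homeobox gene Emx2 flanked 2, up to 0.384 and 0.314, and Runx2 1, with 1.39 and 1.15.

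Among granulosa genes, Gja1, which encodes the gap junction protein connexin 43, flanked 12, all between it and Hsf2, from 0.300 to 1.34 in replicate 1 and from 0.314 to 1.24 in replicate 2. Has2, the hyaluronan synthase of the expanding cumulus, flanked 2 at 0.879 or more in replicate 1 and 1.08 or more in replicate 2. The FSH receptor gene Fshr flanked 2, up to 0.449 and 0.661, 1 of them with a CTCF match. The growth factor receptor gene Fgfr2 flanked 2, up to 0.612 and 0.530. Of the theca and luteal list only Parm1 flanked any, 2 peaks up to 0.638 and 0.615. In the oocyte list Kit did, by 1 peak it shares with the stromal gene Pdgfra, with 0.632 and 0.406.

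Among the other stroma and vessel genes, the endothelial cadherin gene Cdh5 flanked 16, up to 1.26 in replicate 1 and 0.962 in replicate 2. Dcn, a proteoglycan gene, flanked 2 and the collagen gene Col3a1 flanked 1. Homeobox, SOX, forkhead, T-box and GATA factor genes flanked far peaks in 41 of 227 cases, at 9.01 per Mb of sequence meeting the rule, led by Zeb2 (18), Sox9 and Tbx3 (15 each) and Foxo1 (12). Nuclear receptor genes did so in 11 of 41 cases, at 7.92 per Mb, led by Nr2f2, Nr5a2 and Nr2f1.

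Beside genes of cell adhesion and axon guidance the far peaks were sparser per Mb than beside all genes. Cadherin and protocadherin genes flanked far peaks in 22 of 112 cases and in 22 of the 25 that border such sequence (88%), against 67.9% of all bordering genes. The 53.0 Mb of sequence beside them held 2.13 far peaks per Mb, below the 5.13 per Mb of all. They were led by Cdh11 (19), Cdh26 and Cdh4 (17 each) and Cdh5 (16). Axon guidance and synaptic adhesion genes did so in 44 of 131 cases and in 44 of the 50 that border such sequence, at 3.06 per Mb over 80.8 Mb, led by Adgrl2 (24), Epha4 (23), Flrt2 (16) and Cntnap5b (14). Some of these genes, such as Cdh4, Cdh5 and Epha4, are also beside stretches with the most far peaks. Olfactory and vomeronasal receptor genes flanked far peaks in 4 of 1479 cases, none with an open promoter, and in 4 of the 10 that border such sequence. That sequence held 9.42 far peaks per Mb over 2.02 Mb, and 11 of their 19 far peaks lay beside Olfr1507, between it and Dad1. Only genes that GENCODE types as protein-coding counted as coding or as flanking genes. Genes of other types in that stretch were left out, and position alone does not tie these peaks to receptor genes.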

How the data were processed

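DNase-seq libraries of 2 mice were analysed from deposited peak and footprint intervals on mm10, the build given in the labels. Per the README texts deposited with each library, its intervals were called from that library's filtered alignments alone. No aligner, caller or threshold is named in those texts or in the labels. The longer list held 109169 peaks in replicate 1 and 114462 in replicate 2, the shorter 66549 and 68552, and footprints numbered 301406 and 294269. Column 7 of the deposited peak files is a signal on a scale that the labels do not state. Below 1, 100% of the values in each library were whole steps of a fixed size (tolerance 0.05 of a step). The footprint score that the authors deposited is the same in every line, so only positions were used. The authors deposited q-values per base, and these were not used for the results.

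Genes came from GENCODE M21 and RefSeq GRCm38.p6, and genome sequence from RefSeq. Python 3.11.15 with numpy 2.4.6, pandas 2.3.3, numba 0.67.0 and matplotlib 3.10.9 did the counting, and the overlap, position, footprint and motif functions were tested on simulated peaks. One group of 2 animals allows no test, so values are given per library or as mean ± SD. Depth per library is unknown.

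The peaks named were the 10 of highest mean value, the 8 highest with a single copy, the 10 highest with a shared footprint, the 5 farthest from a coding start, the 12 stretches with most peaks, and the strongest peak beside each listed ovarian, granulosa, theca or luteal gene, with up to 4 genes from each other list. A few peaks and genes that this rule names are not reported here. The members, the 10 gene lists and the 20 motifs were chosen with earlier results of these data known. Alternatives were the shorter lists, other distances, overlaps, gene models, windows and footprint rules, the other library, single-copy peaks, strong peaks, and each library alone. The comparison with RefSeq genes, the classes by distance, GC content and value, footprints over motif matches, strands of CTCF matches and the density per Mb of bordering sequence were added after the data were seen. How reads of CAST origin align to the C57BL/6J reference was not tested.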

Additional observations from a re-analysis of the deposited data

How the results depend on the processing

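The libraries are 2, so spreads between them rest on 2 values, the scaling of the signal is not given, and which cell types open these sites was not tested. Each of 5 results was recomputed under the alternatives. Given here are counts that moved by over 1.5 times, medians of the value that moved by more than the SD of the library medians, and shares and spacings that moved by more than the SD between the far peaks counted from either library, which is small since both use nearly the same sites. The number of far peaks, 2716, was 2721 when the peaks of replicate 1 were counted, of which 2714 overlapped one of the 2716. It was 2124 with an overlap of 50% of both peaks, 3357 outside coding gene bodies only, 2618 for single-copy peaks and 2376 outside RefSeq gene bodies too. It became 1296 with the shorter lists, 5516 at 100 kb, 557 at 500 kb and 442 for strong peaks, those with a mean value at or above the median of all shared peaks. With each library alone, without the overlap, it ranged from 4775 to 5114.

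The median value, 0.493, was 0.764 with the shorter lists, 0.548 with an overlap of 50% of both peaks, 0.552 at 100 kb, 0.398 at 500 kb and 1.46 for strong peaks, and from 0.327 to 0.332 with each library alone. The share with a footprint in both libraries, 66.9%, was 87.7% with the shorter lists, 75.1% with 50% overlap, 67.3% from replicate 1, 70.6% at 100 kb, 59.6% at 500 kb, 98.4% for strong peaks, 67.7% for single-copy peaks, 67.4% for footprints that overlap by 1 bp or more, and from 61.5% to 62.3% with each library alone, where only that library's footprints count.

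Median spacing, 68.7 kb, was 183 kb with the shorter lists, 101 kb with 50% overlap, 68.7 kb from replicate 1, 46.4 kb at 100 kb, 239 kb at 500 kb, 53.7 kb outside coding gene bodies only, 1316 kb for strong peaks, 67.3 kb for single-copy peaks and from 39.3 to 54.0 kb with each library alone. Leaving out RefSeq gene bodies too, an alternative added after the data were seen, gave 80.5 kb. The share with a CTCF match, 4.97%, was 8.18% with the shorter lists, 6.03% with 50% overlap, 5.03% from replicate 1, 5.58% at 100 kb, 6.10% at 500 kb, 4.74% outside coding gene bodies only, 12.2% for strong peaks, 5.12% for single-copy peaks, 4.82% in a window of 50 bp, 5.04% over the whole peak and from 3.25% to 3.38% with each library alone. No paired analysis was possible because there is 1 group and no test.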
